A study of Mus musculus with 9 samples.

Results

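Medag, Ccdc3, Pparg, Cebpa, Cebpb, Cebpd, Lpl and Fabp4 are 8 genes tied to fat-cell differentiation, out of 24421 rows of the deposited count table, and their RNA was measured in a mouse glioma. Medag and Ccdc3 were picked on their rise after BAL101553 in these libraries, so their difference between treated and control libraries is given as a description with no test. The other 6 genes were listed for their known roles. SB28 is a mouse glioma line that carries GFP, implanted here in the brains of young adult C57BL/6 mice. BAL101553 (lisavanbulin) is a prodrug of BAL27862, a small molecule that binds tubulin and disturbs the mitotic spindle. The 3 groups, each with 3 libraries, were control (mice given vehicle), BAL101553 (treated mice), and a group labelled astrocytes whose treatment label was also BAL101553. According to the study's methods, tumor cells were sorted as CD45- CD11b- GFP+ cells, while the labels of the control and BAL101553 libraries read whole tissue. Treated tumors were collected later than control tumors so that their volumes matched, so treatment and time of growth cannot be told apart. The study's methods also state fewer ex vivo samples per group than the 3 labelled here, so it is not certain that the sort and the collection times apply to every library. They do not describe how the libraries labelled astrocytes were obtained, and the labels do not say whether libraries of a group came from separate mice. In bulk RNA, fewer cells of a type and less RNA per cell cannot be told apart.

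Adipogenesis runs as a relay of transcription factors. Hormonal and glucocorticoid signals first induce C/EBPβ and C/EBPδ (encoded by Cebpb and Cebpd), which switch on PPARγ (Pparg) and C/EBPα (Cebpa), and the latter pair then maintain each other and drive genes of the mature fat cell. Among those targets are Lpl, encoding the lipase that frees fatty acids from circulating triglyceride, and Fabp4, encoding a carrier of fatty acids inside the cell. Medag (mesenteric estrogen-dependent adipogenesis) promotes lipid accumulation when it is raised in preadipocytes, and Ccdc3 encodes a secreted coiled-coil protein found in adipocytes and endothelium. None of these factors is restricted to fat: C/EBPβ and C/EBPδ also serve in inflammatory and stress responses, and Lpl is made in brain.

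The sequence just before the start of transcription is shown for the picked pair and for Pparg, because C/EBP proteins act on Pparg in the relay above, with the Pparg window chosen after the motif search. RefSeq promoter entries (GRCm38.p6) were found for 5 of the 8 genes, and Cebpd, Lpl and Fabp4 had none. Each run below is the 250 bases before an annotated start, read 5′ to 3′ on the plus strand, which is the coding strand of all 3 genes. Capitals mark matches, on either strand, to TTGCNNAA (C/EBP-type), AGGTCA (nuclear receptor hexamer) or GGGCGG (GC box).
Medag, chr5:149411499-149411748: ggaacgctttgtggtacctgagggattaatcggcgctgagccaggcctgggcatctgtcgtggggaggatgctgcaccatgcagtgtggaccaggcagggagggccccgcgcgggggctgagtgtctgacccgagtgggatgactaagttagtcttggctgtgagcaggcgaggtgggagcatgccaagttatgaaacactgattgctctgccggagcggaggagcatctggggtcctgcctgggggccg
Ccdc3, chr2:5137526-5137775: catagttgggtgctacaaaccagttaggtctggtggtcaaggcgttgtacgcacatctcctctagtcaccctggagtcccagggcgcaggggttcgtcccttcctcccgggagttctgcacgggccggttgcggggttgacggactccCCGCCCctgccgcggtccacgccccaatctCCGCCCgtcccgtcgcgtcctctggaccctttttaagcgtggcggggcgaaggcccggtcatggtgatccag
Pparg, the third annotated start, chr6:115421816-115422065: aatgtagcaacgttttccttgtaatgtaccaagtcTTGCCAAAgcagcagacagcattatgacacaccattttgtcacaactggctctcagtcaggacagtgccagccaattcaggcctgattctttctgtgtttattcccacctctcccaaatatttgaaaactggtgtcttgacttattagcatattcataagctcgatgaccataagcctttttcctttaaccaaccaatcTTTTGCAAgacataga

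The Medag window held none of the 3 motifs, which says only that these letters are not in this window. The Ccdc3 window held 2 GC boxes, at 102 to 97 and at 72 to 67 bases before the start, a motif that 32.7% of all 32851 promoter windows of this length hold. The Pparg window held 2 C/EBP-type matches, at 215 to 208 and at 16 to 9 bases before the start, while 9.56% of all windows hold at least 1. The other 2 Pparg windows held no C/EBP-type match, but 1 nuclear receptor hexamer each, a motif found in 14.0% of all windows, and 1 and 2 GC boxes. A second Medag window, at chr5:149413588-149413837, also held none of the 3 motifs. GC content was 62.8% in the Medag window, 65.2% in the Ccdc3 window and 40.8% in the Pparg window.

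On GRCm38 with the GENCODE vM21 annotation, Medag lies at chr5:149411749-149431723 and Ccdc3 at chr2:5137776-5230878, both on the plus strand. Pparg is at chr6:115360951-115490399, Cebpa at chr7:35119293-35121928, Cebpb at chr2:167688915-167690418 and Cebpd at chr16:15887286-15891031, all on the plus strand. Lpl is at chr8:68880491-68907448 on the plus strand and Fabp4 at chr3:10204088-10208576 on the minus strand. The deposited counts are per gene. Antisense or opposite-strand genes overlap Medag, Ccdc3, Pparg, Cebpa, Cebpb and Cebpd. Since the strand setting of the counting is not given in the sources used here, reads of such partners could be included. On the same strand, Gm20488 overlaps Medag and Gm13198 overlaps Ccdc3. A strand setting would not separate these, and how shared reads were counted is not given.

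Total counts ran from 24540452 to 28761388 in control, 26667789 to 34013875 in BAL101553 and 22919523 to 29230743 in the libraries labelled astrocytes. Levels are given as CPM, that is counts scaled to 1 common library size, with TMM factors over all 9 libraries, and 3 counts correspond to 0.0884 to 0.135 CPM. The edgeR quasi-likelihood test between BAL101553 and control took 12633 genes, of which 1860 (14.7%) had an adjusted p under 0.05, with 1091 higher (8.64%) and 769 lower (6.09%). This count fell to 458 without control 1, 193 without control 3, 1133 without BAL101553 1 and 668 without BAL101553 3. With total counts in place of TMM, 1456 genes were higher and 425 lower, so that higher genes made up 77.4% of calls instead of 58.7%, and the median log2 fold change of all genes was 0.10 instead of 0.02.

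Medag counts were higher, once scaled for depth, in every treated library than in any control library. Its level was 8.84, 8.26 and 8.88 CPM in control 1 to 3 and 26.1, 33.5 and 27.6 CPM in BAL101553 1 to 3. Behind these levels were 197, 218 and 211 reads in control and 763, 850 and 936 reads in BAL101553. The control libraries lay close together and the groups were far apart, as the selection required. The mean was 8.66 ± 0.347 CPM in control and 29.1 ± 3.94 CPM in BAL101553 (SD, n = 3 each), a fitted difference of 1.75 ± 0.14 on the log2 scale (SE), or 3.37-fold. Over 15 settings of the processing, the difference ranged from 1.63 (without BAL101553 2) to 1.84 (total counts in place of TMM).

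Ccdc3 showed the larger difference of the pair and the wider spread. Its level was 4.98, 7.16 and 7.11 CPM in control 1 to 3 and 25.3, 28.8 and 37.6 CPM in BAL101553 1 to 3. Control 1 was the lowest and BAL101553 3 the highest of the 6 libraries. The mean was 6.42 ± 1.25 CPM in control and 30.5 ± 6.32 CPM in BAL101553 (SD, n = 3 each), a fitted difference of 2.25 ± 0.20 log2 units (SE) or 4.77-fold. Its range over the 15 settings was 2.08 (without BAL101553 3) to 2.37 (without BAL101553 1).

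The libraries labelled astrocytes set the pair apart. Medag was at 1.54, 1.76 and 1.51 CPM there, below every tumor library, whereas Ccdc3 stood at 30.5, 30.8 and 47.0 CPM, within and above the range of the treated tumor libraries. Against BAL101553, the fitted log2 difference was -4.16 ± 0.16 (SE) for Medag and 0.25 ± 0.21 for Ccdc3. Since the pair was picked for high values in the BAL101553 libraries, these differences are descriptions too. Across all 9 libraries the log2 levels of Medag and Ccdc3 had a Pearson r of -0.17, against 0.97 over the 6 tumor libraries, where the choice of the pair fixed the sign.

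**Figure D1:**
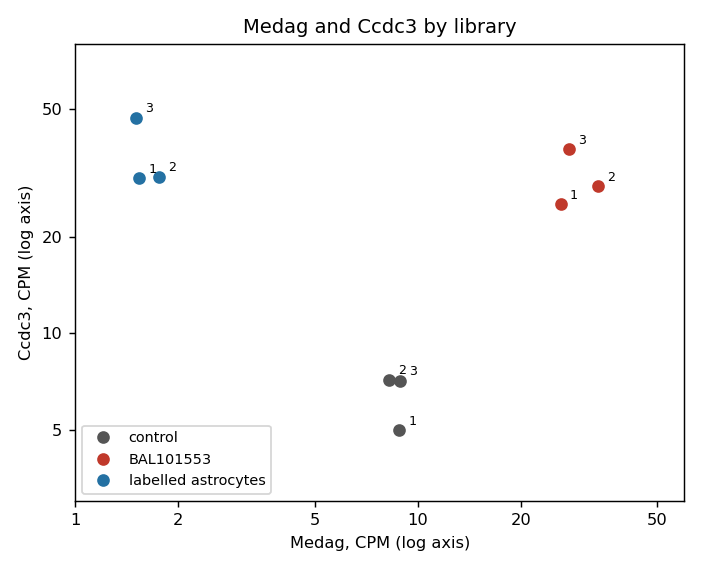
Level of Medag (horizontal, CPM, log axis) against Ccdc3 (vertical, CPM, log axis), 1 point per library, numbered by replicate. Treated tumor libraries lie above and to the right of the control libraries, and the libraries labelled astrocytes combine the lowest Medag levels (1.51 to 1.76 CPM) with Ccdc3 levels of 30.5 to 47.0 CPM.

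None of the 6 genes listed for their roles passed the test between BAL101553 and control. Of these, 4 had enough reads to be tested, and the edgeR quasi-likelihood test called 0 of 4, beside 14.7% of all genes. At an unadjusted p under 0.05 there were 2 (Cebpa and Cebpb), and DESeq2 and limma-trend called none. None of the 4 was called in any of the 15 settings. Lpl and Fabp4 had too few reads to pass the filter on low counts. Beside Medag and Ccdc3, which were picked for their separation, the libraries of the groups did not overlap for 2 of these 4, Cebpa (higher in BAL101553) and Pparg (lower). Among all genes tested 39.7% did not overlap, 20.1% with BAL101553 higher and 19.6% with it lower, so this is no result about the 2 genes.

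The early factors were the most abundant of the set in tumor libraries. Cebpb was at 36.3, 31.9 and 51.5 CPM in control and 55.4, 62.5 and 48.7 CPM in BAL101553. BAL101553 3 lay below control 3, so the groups overlapped, and the log2 difference of 0.48 ± 0.19 (SE) had an adjusted p of 0.113 (edgeR). Cebpd, its partner in the first wave, was at 46.8, 26.2 and 47.0 CPM in control and 75.8, 58.6 and 38.4 CPM in BAL101553. Here too BAL101553 3 fell inside the control range, and the log2 difference of 0.53 ± 0.29 had an adjusted p of 0.236 (edgeR).

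Of the 2 central regulators, Cebpa was at 2.24, 2.35 and 2.61 CPM in control and 3.11, 8.13 and 3.09 CPM in BAL101553. All treated libraries lay above all controls, but BAL101553 2 stood well above the other treated libraries. The log2 difference was 0.99 ± 0.41 (SE, adjusted p = 0.128, edgeR), and without BAL101553 2 it was 0.37 (adjusted p = 0.304). Pparg, the receptor without which fat cells do not form, was at 0.808, 0.909 and 1.43 CPM in control and 0.718, 0.631 and 0.471 CPM in BAL101553. These levels rest on 18 to 34 reads per control library and 16 to 21 reads per treated library. Every treated library was below every control library, yet the log2 difference of -0.79 ± 0.36 did not pass (adjusted p = 0.165, edgeR), and over the 15 settings it ran from -0.94 to -0.50.

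The targets of the relay were close to the limit of detection in tumor libraries. Lpl had 0, 2 and 6 reads in control and 2, 2 and 9 reads in BAL101553, which is at most 0.265 CPM. Fabp4 had 1, 1 and 2 reads in control and 2, 4 and 6 reads in BAL101553, at most 0.177 CPM. With a filter of only 1 count in any library, the log2 difference was 0.36 ± 0.98 (SE) for Lpl (adjusted p = 0.842, edgeR) and 1.22 ± 0.81 for Fabp4 (adjusted p = 0.379, edgeR). With so few reads, all but a large difference in either gene would be missed.

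**Figure D2:**
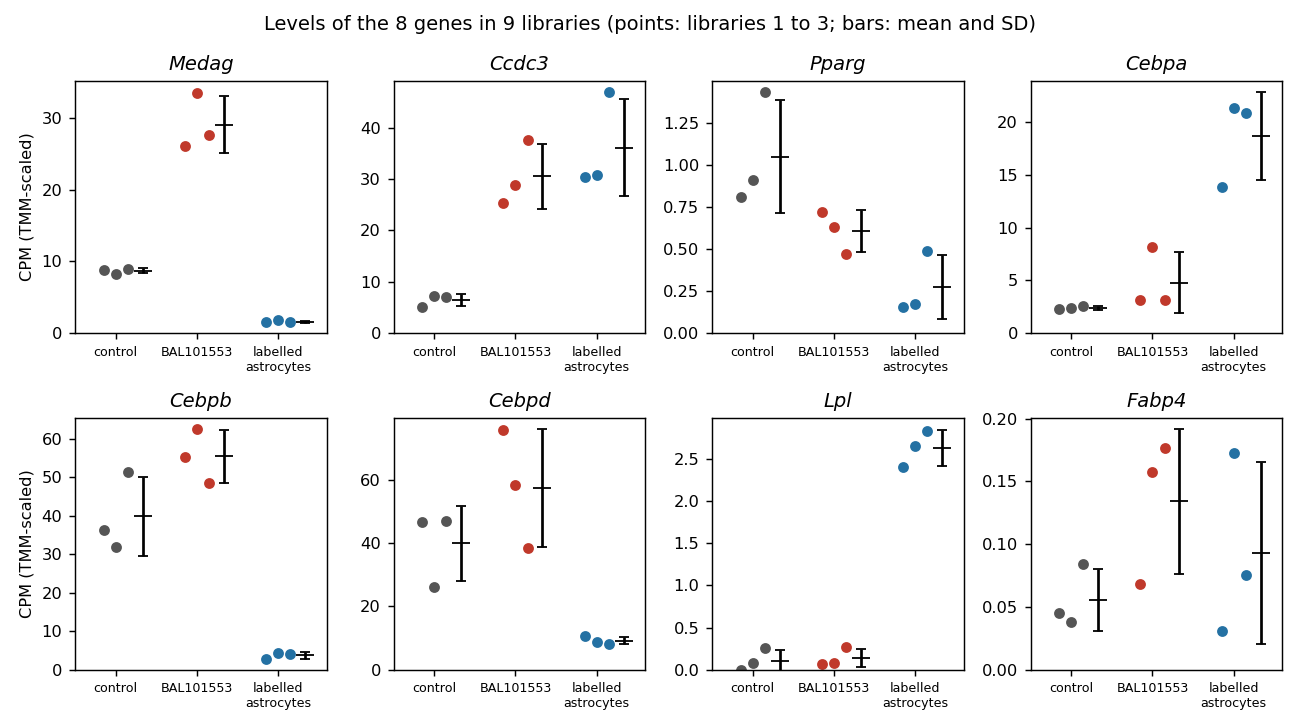
Level of each of the 8 genes in CPM by library (points) with group means and SD (bars, n = 3), 1 panel per gene on its own linear axis cut at 0. Medag and Ccdc3 separate treated from control libraries, Cebpb and Cebpd overlap, and Lpl exceeds 2 CPM in the libraries labelled astrocytes alone, from 2.40 to 2.83 CPM.

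Per kilobase of annotated exon, the order of levels in control was Cebpb (26.5 ± 6.84 CPM per kb, SD), Cebpd (10.7 ± 3.19), Ccdc3 (2.40 ± 0.467), Medag (2.19 ± 0.0876), Cebpa (0.911 ± 0.0715) and Pparg (0.355 ± 0.113), with Fabp4 and Lpl under 0.03 CPM per kb. Ccdc3 and Medag were neighbours whose ranges overlapped in control. In BAL101553 the order was the same, with Cebpb at 36.9 ± 4.62, Cebpd at 15.4 ± 4.99, Ccdc3 at 11.4 ± 2.37 and Medag at 7.35 ± 0.997 CPM per kb. There the range of Ccdc3 (9.47 to 14.1) overlapped that of Cebpd (10.3 to 20.2). In the libraries labelled astrocytes Ccdc3 stood first at 13.5 ± 3.54 and Cebpa second at 7.08 ± 1.59 CPM per kb, followed by Cebpb at 2.47 ± 0.542 and Cebpd at 2.46 ± 0.312, whose ranges overlapped. The annotated exons of Lpl and Fabp4 include long noncoding or retained-intron transcripts (10478 and 4489 bases in all), which lowers their values per kilobase.

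Many genes followed Medag and Ccdc3 over the 6 tumor libraries. The highest Pearson r of log2 CPM with Medag were those of Syne1 (0.998), which encodes a nuclear envelope protein, Tbkbp1 (0.997), Trp53 (0.997), which encodes the p53 tumor suppressor, Acin1 (0.997) and Pkd2 (0.996), a cation channel gene. With Ccdc3 they were Fam193b (0.998), Lime1 (0.998), Ppid (0.997), a cyclophilin gene, Cep76 (0.997), a centrosome gene, and Setbp1 (0.996). As many as 365 genes for Medag and 401 for Ccdc3 had an r over 0.95. With 6 points in 2 separated groups, a gene that rises clearly between the groups can reach a high r. The likeness held unevenly once the libraries labelled astrocytes were added: over 9 libraries r with Medag was -0.75 for Syne1, -0.65 for Tbkbp1 and -0.62 for Trp53, but 0.74 for Acin1 and 0.79 for Pkd2. With Ccdc3 it was 0.97 for Setbp1, 0.89 for Lime1 and 0.79 for Fam193b, and -0.23 for Ppid and -0.30 for Cep76. Setbp1 had means of 6.47 CPM in control, 18.4 CPM in BAL101553 and 18.4 CPM in the libraries labelled astrocytes. Ccdc3 had means of 6.42, 30.5 and 36.1 CPM in the same order. Both were lowest in control, but Setbp1 stood well below Ccdc3 in the other groups.

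Genes of the wider adipogenic pathway, in 4 lists set up by role, included risers and fallers. Of 87 listed genes, 86 were in the table and 64 were tested between BAL101553 and control, of which 7 were higher and 4 lower, or 17.2% called beside 14.7% of all genes. The median log2 fold change was 0.23 over these genes and 0.02 over all genes tested. The 11 calls fell to 2 without control 1, 6 without control 2, 1 without control 3, 6 without BAL101553 1 and 5 without BAL101553 3. Only the calls of Wnt10b, in all 15 settings, and Trib3, in 14, were lost in at most 1 setting. Calls lost with a replicate block in the model are named in the last section and not repeated gene by gene below.

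Among factors that promote adipogenesis, 2 of 18 tested genes rose and 1 fell, with a median log2 fold change of 0.26. Nr3c1, the glucocorticoid receptor gene, rose from 42.8 ± 8.46 to 75.8 ± 8.17 CPM (SD, n = 3 each), by 0.83 ± 0.15 on the log2 scale (adjusted p = 0.0170, edgeR). Med1, a Mediator subunit gene that serves PPARγ, rose by 0.36 ± 0.089 (adjusted p = 0.0368, edgeR). Egr2 (Krox20), an early factor upstream of Cebpb, was lower in BAL101553, with 28.9 ± 2.58 CPM in control and 14.5 ± 3.25 CPM in BAL101553, a log2 change of -0.99 ± 0.18 (adjusted p = 0.0167, edgeR). The calls of Nr3c1 and Egr2 were each lost without control 1 and without control 3. That of Med1 was lost when any of control 1, control 2, control 3, BAL101553 1 or BAL101553 3 was left out, and with a minimum of 1 count in any library as the filter.

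Among factors that restrain adipogenesis, 3 of 19 tested genes rose and 1 fell, with a median log2 fold change of 0.16. Wnt10b, a secreted Wnt ligand that keeps preadipocytes undifferentiated, was at 0.987, 1.44 and 0.968 CPM in control and 4.51, 4.50 and 4.33 CPM in BAL101553. The treated libraries were nearly alike and lay far from the controls, with a log2 change of 1.97 ± 0.25 (adjusted p = 0.00728, edgeR). Trib3, a stress-induced pseudokinase gene, rose from 26.5 ± 6.52 to 57.1 ± 7.68 CPM, by 1.11 ± 0.20 (adjusted p = 0.0149, edgeR), a call lost without control 3. Ncor1, a nuclear receptor corepressor gene, rose by 0.29 ± 0.076 (adjusted p = 0.0442, edgeR), and Sox9, which holds progenitors undifferentiated, had a log2 change of -0.65 ± 0.17 (adjusted p = 0.0410, edgeR). The Ncor1 call was lost whichever library was left out and with a minimum of 1 count in any library, and the Sox9 call when control 1, control 3, BAL101553 2 or BAL101553 3 was left out.

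Of 25 listed genes for products and lipid droplets of the mature fat cell, 12 had at most 3 counts in each of the 6 tumor libraries, and 7 of these (Lep, Retn, Cfd, Cidea, Cidec, Pck1 and Ucp1) had no read in any. Adipoq, the adiponectin gene, and Plin1, which coats the fat droplet of adipocytes, were among the other 5. The list as a whole summed to 1381 to 1468 CPM in control and 1174 to 1583 CPM in BAL101553, with lipid synthesis and droplet genes that many cells use, such as Fasn, Plin2 and Scd1, at means of 596, 351 and 262 CPM in control. Of the 13 genes tested, none was higher, and Pnpla2, the triglyceride lipase gene, was lower, with a log2 change of -0.54 ± 0.12 (adjusted p = 0.0279, edgeR) that lost its call when control 1, control 3, BAL101553 1 or BAL101553 3 was left out. Among partners of lipoprotein lipase and genes of fatty acid uptake, 14 of 21 were tested, 2 were higher and 1 lower. Sel1l, needed for the lipase to leave the endoplasmic reticulum, rose by 0.37 ± 0.088 (adjusted p = 0.0316, edgeR), and Vldlr, a lipoprotein receptor gene, by 0.39 ± 0.10 (adjusted p = 0.0463, edgeR). Acsl1, which activates fatty acids, had a log2 change of -0.57 ± 0.15 (adjusted p = 0.0396, edgeR). Each of these 3 calls was lost when control 1, control 2, control 3, BAL101553 1 or BAL101553 3 was left out. That of Vldlr was also lost without BAL101553 2, with RLE scaling and with all 9 libraries in one model, and that of Acsl1 with total counts. Gpihbp1, which anchors the lipase to capillaries, had no read in any tumor library.

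**Figure D3:**
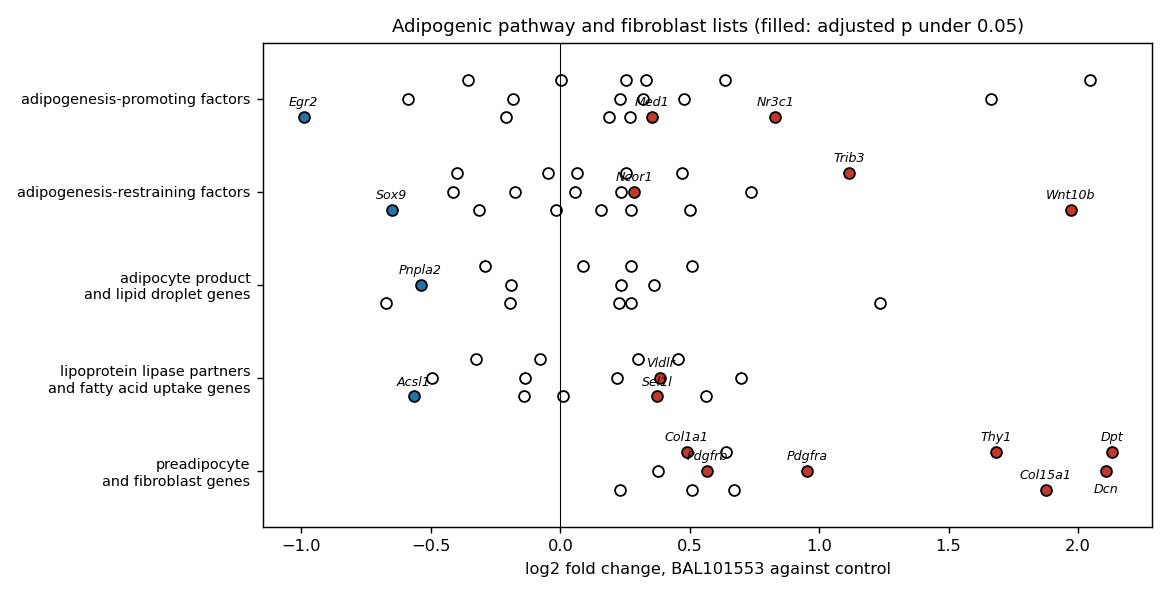
Fitted log2 fold change of BAL101553 against control (horizontal) for each tested gene of the 4 pathway lists and the preadipocyte and fibroblast list (rows, spread vertically for legibility). Filled points have an adjusted p under 0.05 (red higher, blue lower); in the bottom row all 12 points lie above 0 and 7 are filled.

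A list of preadipocyte and fibroblast genes was read beside Medag and Ccdc3. It was chosen with earlier results of these data known, so its share of calls is a description and no independent support. Of 16 listed genes, 12 were tested, 7 were higher and none lower in BAL101553 (58.3% called, beside 14.7% of all genes in either direction and 8.64% higher), and the median log2 fold change was 0.655. Pdgfra, the receptor that marks adipocyte precursors and also glial progenitors, was at 170, 201 and 127 CPM in control and 304, 322 and 335 CPM in BAL101553, a log2 change of 0.95 ± 0.16 (adjusted p = 0.0134, edgeR). Dcn, the gene of the matrix proteoglycan decorin, was at 3.81, 5.68 and 5.39 CPM in control and 15.9, 13.4 and 34.7 CPM in BAL101553, a log2 change of 2.11 ± 0.37 (adjusted p = 0.0148, edgeR) whose call was lost without control 1 and without control 3. The other genes called were Pdgfrb, Thy1, Dpt, Col1a1 and Col15a1, with log2 changes of 0.57, 1.68, 2.13, 0.49 and 1.88. Dpt averaged 0.260 CPM in control, near the limit of detection, and 1.16 CPM in BAL101553. It passed the filter on low counts through the group where it was higher. With at least 10 counts in every library, 6 genes of the list were called. The count of 7 fell to 2 without control 1, 4 without control 2 and 1 without control 3, and Pdgfra was called in all 15 settings. The summed level of the list ran from 7549 to 8293 CPM in control and 10577 to 12296 CPM in BAL101553, with Col1a1 alone at means of 4100.0 and 5733 CPM, and stood at 470 to 513 CPM in the libraries labelled astrocytes. Its part in the Medag and Ccdc3 values was not tested. Dpp4 and Pi16, markers of early fat progenitors, were at most at 2 and 12 reads in any tumor library.

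Marker lists of other cells also differed in level between the groups. Of the endothelial list 1 of 10 tested genes was lower (Cdh5) and none higher. That is 10% called, beside 14.7% of all genes, and so no result about the list. Its 12 genes summed to 763 to 903 CPM in control and 557 to 679 CPM in BAL101553, almost all of it Cdh5. Cldn5 was at most 1.48 CPM and Pecam1 at most 1.21 CPM in any tumor library. Of the mural list 2 of 4 tested genes were lower (Rgs5 and Acta2) and none higher, beside 6.09% of all genes lower. The other 2, Notch3 and Cspg4, had positive log2 changes (0.52 and 0.80) and were not called. With only 4 genes tested, this share says little. The mural list summed to 864 to 962 CPM in control and 528 to 856 CPM in BAL101553, mostly Acta2. The microglia and macrophage list summed to 164 to 296 CPM in control and 317 to 391 CPM in BAL101553, mostly Tmem119, which did not pass the test (0.69 ± 0.21 log2 units, adjusted p = 0.0631, edgeR). Of its 8 tested genes 6 had a negative log2 fold change (median -0.26), and the only one called, P2ry12, was lower (-1.88 ± 0.44, adjusted p = 0.0313, edgeR). This is 12.5% called, near the 14.7% of all genes. Ptprc (CD45) was at most 0.337 CPM in any tumor library. Their part in the results above was not tested. In the libraries labelled astrocytes the astrocyte list summed to 13044 to 15864 CPM against 684 to 974 CPM in tumor libraries. There the oligodendrocyte list also reached 10282 to 12723 CPM, the mural list 1066 to 1227 CPM and the microglia and macrophage list 630 to 1400 CPM. The endothelial list summed to 295 to 366 CPM, less than in tumor libraries, with Cdh5 lower but means of 61.3 CPM for Cldn5 and 23.6 CPM for Pecam1. Markers of several brain cell types were thus present, and their part in the Ccdc3 level there was not tested.

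Between the libraries labelled astrocytes and BAL101553, all 5 of the testable genes listed for their roles differed, at a background where 13039 of 15314 genes (85.1%) were called, 7085 higher (46.3%) and 5954 lower (38.9%). A share of all genes this high leaves little to read from the count. This comparison shares its BAL101553 libraries with the one against control. Cebpa was higher at 13.8, 21.3 and 20.8 CPM, by 2.0 ± 0.39 log2 units (adjusted p = 0.00145, edgeR). Lpl was higher too, at 2.40, 2.66 and 2.83 CPM on 75 to 78 reads per library, by 4.16 ± 0.44 (adjusted p = 3.85e-05, edgeR). It passed the filter on low counts only through the libraries labelled astrocytes, with 2, 2 and 9 reads in BAL101553. The direction of the Lpl call was thus largely set by the filter, and its p is no support. The early factors were lower in all 3 libraries labelled astrocytes than in any tumor library.

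Cebpb was at 2.77, 4.28 and 4.08 CPM in the libraries labelled astrocytes, a log2 change of -3.89 ± 0.19 (adjusted p = 4.45e-07, edgeR), and Cebpd at 10.5, 8.83 and 8.27 CPM, a log2 change of -2.63 ± 0.25 (adjusted p = 1.93e-05, edgeR). Pparg was at 0.154, 0.172 and 0.491 CPM on 5, 5 and 13 reads, overlapping the BAL101553 libraries, and its log2 change of -1.16 ± 0.47 passed narrowly (adjusted p = 0.0483, edgeR). That call was lost when any 1 of BAL101553 1 to 3 was left out (adjusted p = 0.123, 0.0795 and 0.0550) and when astrocytes 1 or 2 was left out (0.161 and 0.155). Pparg passed the filter on low counts through BAL101553, the group where it was higher. Fabp4 had 1, 5 and 2 reads and did not pass the filter; with a minimum of 1 count in any library its log2 change was -0.55 ± 0.74 (adjusted p = 0.505, edgeR). Of the pathway genes, 74 were tested, with 40 higher and 25 lower (87.8% called). Of promoting factors 12 of 19 were higher and 4 lower, of restraining factors 3 of 20 were higher and 14 lower, and of fat-cell product genes 15 of 18 were higher and 2 lower. Among lipase partners and uptake genes, 10 of 17 were higher and 5 lower. These tallies depend on the filter on low counts. Cidea, Cidec, Slc2a4, Aqp7 and Adrb3, with means of at most 0.0768 CPM in BAL101553, passed it only through the libraries labelled astrocytes. So did Ppargc1a, Dlk1, Apoc3, Cd36 and Fabp7. Zfp521, with a median of 0.410 CPM and a minimum of 2 reads in BAL101553, also needed the libraries labelled astrocytes to pass. All of these were called higher. Gata3 and Wnt10b, called lower, passed only through BAL101553. The direction of such calls was largely set by the filter.

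**Figure D4:**
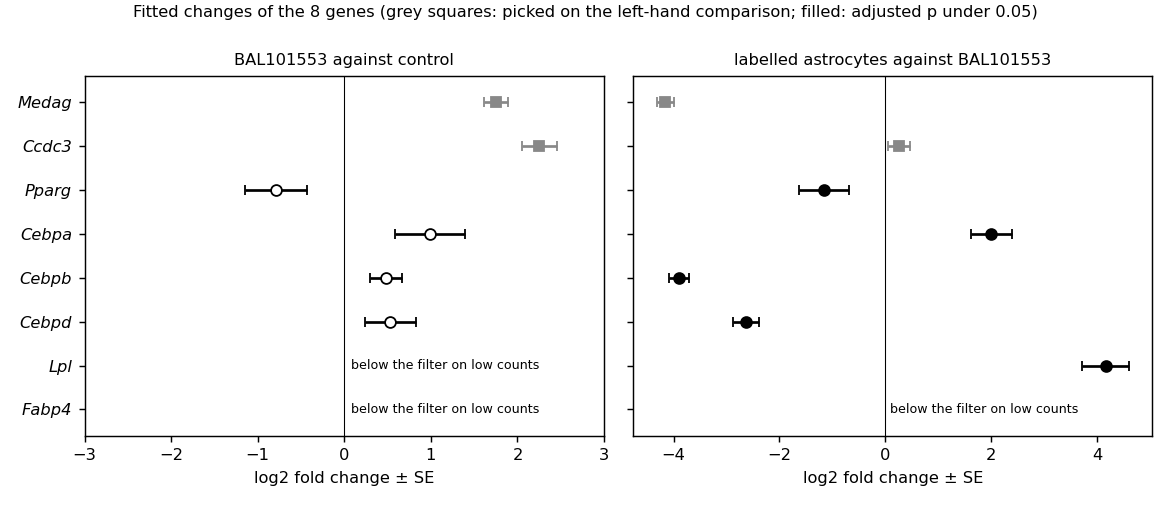
Fitted log2 fold change ± SE for the 8 genes, BAL101553 against control (left) and libraries labelled astrocytes against BAL101553 (right), n = 3 libraries per group. Grey squares are Medag and Ccdc3, picked on the left comparison and not tested. Filled circles had an adjusted p under 0.05 and open circles did not, so the left panel has no filled circle. On the right, Lpl passed the filter on low counts only through the libraries labelled astrocytes.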

How the data were processed

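RNA-seq of 9 mouse libraries was analysed from the whole-number read counts per gene that the authors deposited. The authors mapped reads from a stranded kit with TopHat to mm10 and counted them with HTSeq (0.6.1, per the labels); the annotation they used is not given in the sources used here. The table had 0 columns of no sample, and 27 of its rows were named by a date. BAL101553 with control, and libraries labelled astrocytes with BAL101553, were compared with edgeR 4.0.16 in R 4.3.3 (TMM, filterByExpr, quasi-likelihood test, only the 6 libraries compared, two-sided, Benjamini-Hochberg over all genes tested, threshold 0.05). Log2 changes carry their SE. DESeq2 1.42.0, limma-trend (limma 3.58.1), other scalings and filters, a joint fit of all libraries, a replicate block and leaving out each library were alternatives, 14 per comparison. The fits were tested on simulated data. The p-values measure only the spread between these libraries, which may be technical.

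Genes named were the 8 members, the 5 genes most correlated with Medag and with Ccdc3 over the 6 tumor libraries (log2 CPM, prior count 2), and from each pathway list the called genes, up to 4 with the largest change per direction. Genes named from marker lists, Fasn, Plin2 and Scd1, and those named for lacking reads, were chosen after their values were seen. The members and lists were chosen with earlier results of these data known.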

Additional observations from a re-analysis of the deposited data

How the results depend on the processing

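The count of 1860 genes called between BAL101553 and control was 2832 with DESeq2, 3022 with all 9 libraries in one model and 1371 with a replicate block, and ran from 193 to 1712 when 1 library was left out. The 11 pathway genes called ran from 1 to 10 when 1 library was left out, and were 8 with the replicate block. Under the block the calls of Med1, Ncor1, Sox9, Pnpla2, Sel1l and Vldlr were lost, as was that of Col1a1 in the fibroblast list. Some of the 8 were therefore not among the 11. The 7 preadipocyte and fibroblast genes called, whose alternatives were added after seeing the data, were 11 with DESeq2 and ran from 1 to 6 when 1 library was left out. Fewer libraries leave less power, and otherwise the cause was not tested. Whether replicate numbers pair the samples was not settled. Same-numbered control and BAL101553 libraries had low correlations of 0.143, 0.0113 and 0.145. Control 1 and control 3 each correlated best with the BAL101553 library of the same number, but control 2 with BAL101553 3 (0.0819). With the replicate block the Pparg call between the libraries labelled astrocytes and BAL101553 was lost (adjusted p = 0.0980), as it was with DESeq2 (0.154), RLE scaling (0.0583), total counts (0.0974) and a minimum of 1 count in any library (0.0572). With at least 10 counts in every library, 3 instead of 5 members were called there, since Pparg and Lpl were then not tested, and Medag had a log2 difference of -3.94 (-3.96 with total counts). No result reversed. Low read numbers limit Lpl, Fabp4 and Pparg.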
